A study of Mus musculus with 30 samples.

Results

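The 7 genes described here encode parts of the machinery by which an epithelial cell holds on to its basement membrane: the tensin Tns4, the laminin chains Lamb3 and Lama3, and the integrin subunits Itga6, Itgb4, Itgb1 and Itga2. They were taken by symbol from a table of 54146 genes, and all 7 passed the filter on low counts. Tns4 and Lamb3 were picked because they were higher with treatment in these same libraries, so their treatment values are a description and carry no test. The other 5 members were added for their place in the same adhesion complexes.

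Expression was measured in small intestinal epithelium of female C57BL/6 mice (C57B6/J in the protocol), 8 to 10 weeks old, that had been moved from standard chow to a semi-purified diet (AIN93G, without dietary agonists of the aryl hydrocarbon receptor, AHR) for 1 week. The mice were gavaged with 10 µg of indolo[3,2-b]carbazole (ICZ), an AHR ligand, in corn oil, or with vehicle, and the intestine was taken after 12 h. EDTA then released the epithelium of each mouse in 5 fractions, F1 to F5, in order of release, and a 3' end library was made from each. Vehicle mice gave 15 libraries (3 mice, 5 fractions each) and ICZ mice 14, because F1 of ICZ replicate 3 was not analysed here. Both groups shared the diet, and no untreated or chow-fed group was analysed here.

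Laminin-332 is a basement membrane protein that contains the chains encoded by Lama3 and Lamb3. In stratified epithelia it is held by the integrin formed from the Itga6 and Itgb4 products, which plectin links to keratin filaments in hemidesmosomes; the simple epithelium of the intestine has a reduced form of this anchor. The Itgb1 product pairs with many alpha subunits, among them the collagen receptor subunit encoded by Itga2, in contacts coupled to actin. Tensins join the tails of beta integrins to actin filaments; the Tns4 product, also called CTEN, lacks the actin-binding part of the larger tensins and is known for displacing them in cells stimulated with epidermal growth factor.

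Library sizes ran from 4359673 to 7819837 gene reads, with a median of 6351137, and single libraries held between 9 and 2217 reads of a member. Levels are given in CPM, the reads of a gene per 1000000 gene reads after TMM normalization, and errors as the SD over mice. The libraries of a group come from separate mice. Summed over 7 epithelial markers every library had between 4682 and 7181 CPM, while 5 markers of squamous keratinocytes, in which laminin-332 and hemidesmosomes are abundant, summed to between 0 and 3.42 CPM; Krt5 had no reads over F2 to F5 in either group. The 6 villus enterocyte markers went down along the fractions in vehicle mice (13590 to 18690 CPM in F1, 3887 to 9948 in F5) and the 7 crypt markers went up (362 to 635 and 919 to 1651 CPM). One library stood apart, F5 of ICZ replicate 1, where 54.3% of gene reads fell on only 10 genes (median of all libraries 26.8%), and the F5 and slope values that it moves most are given also without it. In bulk fractions fewer cells of a type and less RNA per cell cannot be told apart.

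Tns4 (ENSMUSG00000017607.9) lies on chromosome 11 at 99065678 to 99089306 on the minus strand, while Lamb3 (ENSMUSG00000026639.18) spans 193207699 to 193343878 of chromosome 1, plus strand (GRCm38, GENCODE M21). Lama3 is on chromosome 18, Itga6 on chromosome 2, Itgb4 on chromosome 11, Itgb1 on chromosome 8 and Itga2 on chromosome 13. Exons of Itgb4 share 537 bases with B230344G16Rik, and those of Lama3 share 197 bases with Gm29200, each on the opposite strand; the strand setting of the counting is not given in the sources used here, so reads over these stretches cannot be assigned to one gene of the pair. The exons of the other 5 members overlap no other annotated gene.

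RefSeq promoter sequences (GRCm38.p6, 250 bases before to 50 bases after a start site) matched 3 of the 7 members: Lamb3, with 2 start sites, Itgb1 and Itga2. They were searched on both strands for the core motif of AHR, GCGTG, for the motif of AP-1, TGANTCA, and for that of TEAD factors, which is GGAATG and reads CATTCC from the other strand, since ICZ acts on AHR and since genes of the other factors' pathways are described below. The Lamb3 promoters are shown because Lamb3 was higher with ICZ, and that of Itga2 because it also holds the AHR core. The ICZ comparison of Itga2 did not pass, and that of Lamb3 carries no test. Capitals mark the motif match; sequences run 5′ to 3′ on the strand of the gene, at chr1:193301744-193302043 (plus), chr1:193301993-193302292 (plus) and chr13:114932051-114932350 (minus).

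Lamb3 first start: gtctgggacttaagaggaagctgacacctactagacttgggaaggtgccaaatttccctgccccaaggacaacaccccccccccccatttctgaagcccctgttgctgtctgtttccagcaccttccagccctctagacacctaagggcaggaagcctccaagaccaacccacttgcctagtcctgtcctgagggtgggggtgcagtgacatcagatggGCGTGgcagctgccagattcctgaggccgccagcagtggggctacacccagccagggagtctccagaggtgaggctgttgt

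Lamb3 second start: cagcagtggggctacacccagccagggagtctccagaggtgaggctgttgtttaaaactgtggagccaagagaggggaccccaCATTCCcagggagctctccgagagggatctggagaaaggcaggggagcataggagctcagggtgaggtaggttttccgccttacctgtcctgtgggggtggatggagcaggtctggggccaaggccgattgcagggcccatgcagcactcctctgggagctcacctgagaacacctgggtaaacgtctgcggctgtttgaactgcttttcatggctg

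Itga2: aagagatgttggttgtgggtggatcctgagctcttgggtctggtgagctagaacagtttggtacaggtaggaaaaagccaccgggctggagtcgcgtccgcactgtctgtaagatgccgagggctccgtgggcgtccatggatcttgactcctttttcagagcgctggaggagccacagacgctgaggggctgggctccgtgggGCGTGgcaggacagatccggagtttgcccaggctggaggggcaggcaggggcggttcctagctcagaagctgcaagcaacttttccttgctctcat

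The first Lamb3 window had the AHR core at -31 from the start site and no match to the other motifs, and the overlapping second window had the TEAD motif at -167 alone. The Itga2 window had the AHR core at -46, and the Itgb1 window (not shown) the TEAD motif at -7. Of 32851 RefSeq promoter windows of this length, 32.4% held the AHR core, 7.81% the AP-1 motif and 14.7% the TEAD motif. A match is a description of the letters and not a binding site.

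Tns4 was higher with ICZ in the fractions released first, and the ranges of the 2 groups overlapped in F4 and F5. In F1 the vehicle mice stood at 22.3, 16.7 and 15.9 CPM (replicates 1 to 3) and the ICZ mice at 49.4 and 42.7 CPM (replicates 1 and 2). In F2 they stood at 15.3, 23.9 and 20.8 CPM with vehicle and 36.5, 41.6 and 38.2 CPM with ICZ. In F3 they stood at 23.5, 22.7 and 25.3 CPM with vehicle and 28.3, 39.3 and 37.3 CPM with ICZ. Every ICZ library was above every vehicle library in these 3 fractions, as was the case for 10.6%, 9.11% and 7.98% of all genes; since Tns4 was picked on this contrast, nothing follows from its being among them.

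In F4 the Tns4 values were 22.4, 21.3 and 29.8 CPM with vehicle and 29.5, 32.8 and 33.2 CPM with ICZ, and the lowest ICZ mouse was just under the highest vehicle mouse. In F5 they were 20.9, 21.1 and 35.4 CPM with vehicle and 20.2, 35.1 and 36.6 CPM with ICZ, so that ICZ replicate 1 was the lowest and vehicle replicate 3 within the range of the other ICZ mice. The fitted log2 fold changes of ICZ over vehicle were 1.33 ± 0.18 (SE) in F1, 0.92 ± 0.17 in F2, 0.54 ± 0.15 in F3, 0.38 ± 0.16 in F4 and 0.27 ± 0.28 in F5. Without vehicle replicate 3 the F4 and F5 values were 0.55 and 0.58, and without the F5 library of ICZ replicate 1 the F5 value was 0.47. Added over F2 to F5, Tns4 had 24.1 ± 3.93 CPM with vehicle and 35.1 ± 4.58 CPM with ICZ (n = 3 mice each), a ratio of 1.46.

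**Figure D1:**
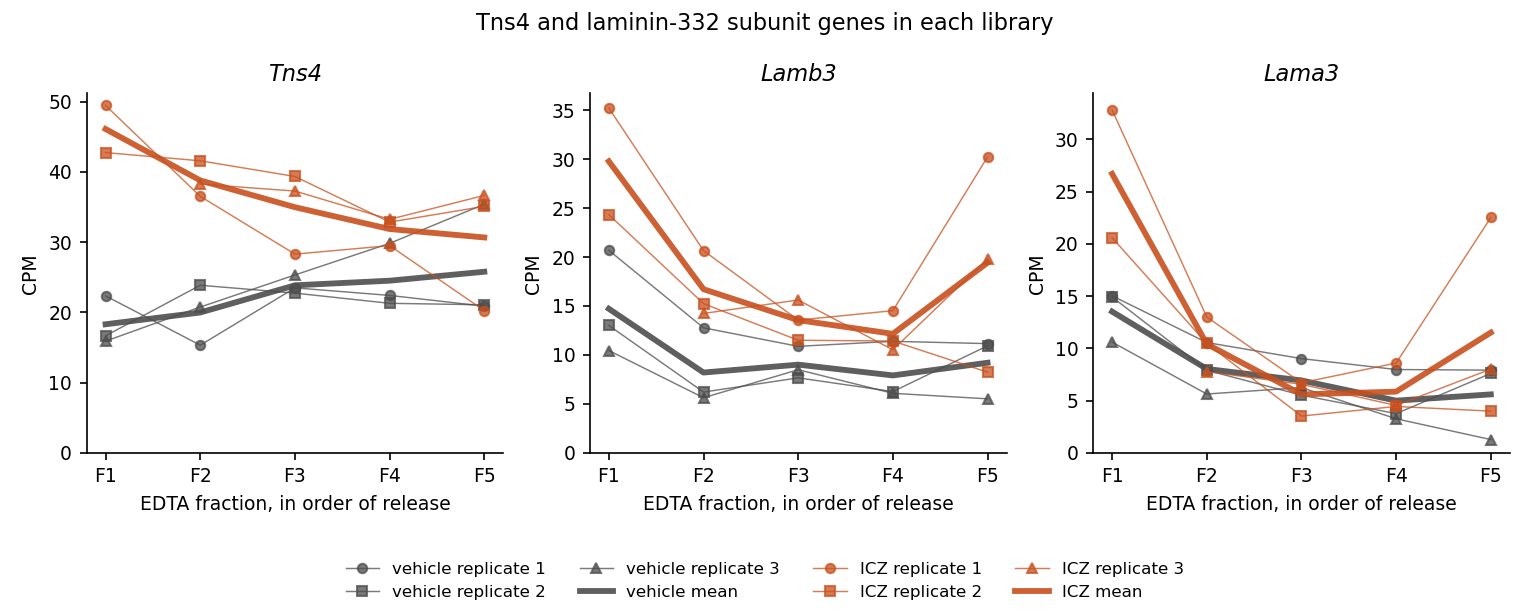
CPM of Tns4, Lamb3 and Lama3 against EDTA fraction, 1 point per library with thin lines joining the fractions of a mouse and thick lines for the group mean (vehicle grey, ICZ orange). The ICZ lines of Tns4 start at 49.4 and 42.7 CPM in F1 and overlap the vehicle range in F5. For Lamb3 and Lama3 the F5 library of ICZ replicate 1 stands above the other F5 libraries.

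Along the fractions Tns4 went opposite ways in the 2 groups. In vehicle mice it rose by 0.12 ± 0.04 on the log2 scale per fraction (edgeR quasi-likelihood with the mouse as a block, adjusted p = 0.0409), with per-mouse slopes of 0.03, 0.05 and 0.28. In ICZ mice it fell by 0.15 ± 0.04 per fraction (adjusted p = 0.00658), with slopes of -0.29, -0.09 and -0.03. The last of these, of ICZ replicate 3, is over F2 to F5 alone. Each call rested on 1 mouse: the adjusted p was 0.675 without vehicle replicate 3 and 0.157 without ICZ replicate 1. With no filter on low counts the vehicle slope did not pass either (adjusted p = 0.0532). F5 against F1 in vehicle mice gave 0.47 ± 0.21 (adjusted p = 0.0994; 0.0158 without vehicle replicate 1). In these tests 35% of genes passed in vehicle mice (18.3% up, 16.7% down) and 30.2% in ICZ mice (14.4% up, 15.8% down), so passing was common, and the libraries are those in which Tns4 was picked. The difference of the slopes was -0.27 ± 0.06 (ICZ minus vehicle). Leaving out vehicle replicate 3 gave -0.18 and leaving out ICZ replicate 1 gave -0.19, or -0.23 where only its F5 library was dropped. It is given as a description, since Tns4 was picked on the treatment contrast.

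The order of the Tns4 group means in vehicle mice was F1 (18.3 ± 3.52 CPM), F2 (20.0 ± 4.32), F3 (23.8 ± 1.33), F4 (24.5 ± 4.64) and F5 (25.8 ± 8.32), and the ranges of all neighbours in this order overlapped. With ICZ it was the reverse, from 46.1 ± 4.74 CPM in F1 (n = 2) over 38.8 ± 2.57 in F2, 35.0 ± 5.87 in F3 and 31.9 ± 2.06 in F4 to 30.7 ± 9.05 in F5, and only F1 and F2 did not overlap among neighbours. F1 of the ICZ mice also held more RNA of villus markers (18960 to 21460 CPM, against 13590 to 18690 with vehicle) and goblet markers (15590 to 15780 CPM, against 10060 to 13370). In F2 the ICZ libraries had less of 7 T cell markers (120.5 to 239.1 CPM, against 314.2 to 719.2). The part of these in the Tns4 values was not tested.

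Lamb3, the beta chain of laminin-332, was higher with ICZ in every fraction by its mean, with no overlap between the groups in F1, F2 and F3. The same held for 10.6%, 9.11% and 7.98% of all genes in these 3 fractions. Since Lamb3 was picked on this contrast, nothing follows from its being among them. In F1 it stood at 20.7, 13.0 and 10.5 CPM with vehicle and 35.2 and 24.3 CPM with ICZ. In F2 the values were 12.8, 6.21 and 5.63 CPM with vehicle and 20.7, 15.2 and 14.2 CPM with ICZ, and in F3 they were 10.9, 7.66 and 8.49 CPM with vehicle and 13.6, 11.5 and 15.6 CPM with ICZ. In F4 and F5 the groups overlapped. The F4 values were 11.4, 6.26 and 6.08 CPM with vehicle and 14.5, 11.4 and 10.5 CPM with ICZ. The F5 values were 11.2, 10.9 and 5.52 CPM with vehicle and 30.2, 8.24 and 19.8 CPM with ICZ. Vehicle replicate 1 was the highest vehicle mouse in all 5 fractions.

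The fitted Lamb3 log2 fold changes from F1 to F5 were 1.01 ± 0.26, 1.00 ± 0.29, 0.59 ± 0.21, 0.65 ± 0.27 and 1.08 ± 0.47. Without the F5 library of ICZ replicate 1 the F5 value was 0.60. Without vehicle replicate 1 the F4 value was 0.99. Fibroblast markers were also higher in F5 with ICZ (28.0 to 128.3 CPM over 7 genes, against 10.9 to 15.6 CPM with vehicle), and their part was not tested. Added over F2 to F5 the vehicle mice stood at 11.8, 7.89 and 6.51 CPM and the ICZ mice at 18.4, 11.6 and 15.8 CPM, so that 1 ICZ mouse was just below the highest vehicle mouse. The group means were 8.73 ± 2.74 and 15.3 ± 3.41 CPM, a ratio of 1.75.

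Lama3, the alpha chain that assembles with the Lamb3 product, was not used to pick the members and was tested. In F1 it stood at 15.03, 14.9 and 10.6 CPM with vehicle and 32.8 and 20.6 CPM with ICZ, without overlap, as had 10.6% of all genes in this direction. The higher villus and goblet markers of these ICZ libraries are given above, and their part was not tested. The log2 fold change was 0.97 ± 0.23 and did not pass over all genes (edgeR, adjusted p = 0.486; 0.0324% of genes passed). With no filter on low counts it passed (adjusted p = 0.00647). In F2 the values were 10.6, 7.90 and 5.63 CPM with vehicle and 13.0, 10.5 and 7.78 CPM with ICZ. In F3 they were 9.02, 5.53 and 6.25 CPM with vehicle and 6.71, 3.53 and 6.56 CPM with ICZ, and in F4 7.98, 3.76 and 3.26 CPM with vehicle and 8.60, 4.44 and 4.54 CPM with ICZ. F5 was the most spread, at 7.92, 7.60 and 1.27 CPM with vehicle and 22.5, 3.995 and 8.02 CPM with ICZ. Beyond F1 the groups overlapped in every fraction, with log2 fold changes between -0.30 ± 0.29 in F3 and 1.02 ± 0.78 in F5. The F5 value rested on ICZ replicate 1 and was 0.10 ± 0.68 without that library. Added over F2 to F5 the Lama3 change was 0.32 ± 0.33.

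Both member laminin genes were highest in F1. In vehicle mice Lama3 fell by 0.36 ± 0.08 per fraction (edgeR, adjusted p = 0.0013), from 13.5 ± 2.53 CPM in F1 to 5.60 ± 3.75 CPM in F5, and every mouse had a negative slope. Lamb3 had 14.7 ± 5.33 CPM in F1 and 7.91 to 9.20 CPM in the group means of the later fractions. Its slope was -0.15 ± 0.06 (adjusted p = 0.0671; 0.0225 without vehicle replicate 2 and 0.0403 with no filter on low counts). When F5 was set against F1 in vehicle mice, a test that 28.1% of genes passed, both were lower in F5, Lamb3 by -0.65 ± 0.22 (adjusted p = 0.0384) and Lama3 by -1.36 ± 0.33 (adjusted p = 0.00551). Without vehicle replicate 3 neither passed (adjusted p = 0.250 and 0.0768), and without vehicle replicate 1 Lamb3 did not (0.151). Without the mouse as a block neither passed (0.177 and 0.060). In ICZ mice the slopes were -0.15 ± 0.09 for Lamb3 and -0.32 ± 0.14 for Lama3, neither of which passed. Without the F5 library of ICZ replicate 1 both fell, by 0.27 (adjusted p = 0.0176) and by 0.52 (adjusted p = 0.00407). That library was left out after seeing the data, and 36.3% of genes passed without it. Lamb3 was picked on the treatment contrast of these same libraries, so its ICZ slope is not independent of that choice. Lama3 also passed without all libraries of that mouse (-0.44, adjusted p = 0.0285).

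Itgb4, the beta subunit that takes the cell's anchor to keratin, was highest in F1 in both groups. In F1 it stood at 88.9, 90.0 and 77.9 CPM with vehicle and 100.4 and 106.7 CPM with ICZ. The groups did not overlap there, as was the case for 10.6% of all genes in this direction. In F2 it stood at 74.8, 66.5 and 61.7 CPM with vehicle and 78.7, 70.3 and 67.2 CPM with ICZ, in F3 at 68.0, 60.2 and 53.2 CPM and 71.3, 69.0 and 63.5 CPM, in F4 at 72.9, 62.8 and 59.2 CPM and 68.9, 59.2 and 64.8 CPM, and in F5 at 68.4, 64.7 and 49.3 CPM and 79.8, 64.2 and 73.6 CPM. In each group the F1 values lay above all those of the other fractions, and the later fractions overlapped with each other.

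The Itgb4 log2 fold change with ICZ was 0.28 ± 0.13 in F1 and did not pass (adjusted p = 0.995), with the higher villus and goblet markers of those F1 libraries given above beside it. In vehicle mice Itgb4 fell by 0.11 ± 0.03 per fraction (adjusted p = 0.00501; 0.077 without vehicle replicate 3), and F5 against F1 gave -0.50 ± 0.11 (adjusted p = 0.00237; 0.104 without that mouse). In ICZ mice the slope was -0.10 ± 0.04 (adjusted p = 0.0611). It passed without the F5 library of ICZ replicate 1 (0.0201), without ICZ replicate 3 (0.0430), with no filter on low counts (0.0490) and without the mouse as a block (0.0499).

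Itga6 encodes the alpha subunit that pairs with the Itgb4 product. Over the vehicle libraries it lay between 214.2 and 282.4 CPM and over the ICZ libraries between 218.7 and 324.1 CPM. Its group means stayed within 241.9 to 256.5 CPM with vehicle and 251.0 to 289.7 CPM with ICZ, with overlapping ranges. The slope was 0.01 ± 0.02 in vehicle mice and -0.04 ± 0.02 in ICZ mice, and neither passed. The vehicle slope was -0.03 without vehicle replicate 2. The Itga6 product can also pair with that of Itgb1.

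Itgb1, the common beta subunit, lay between 128.7 and 180.8 CPM over the vehicle libraries and between 125.2 and 161.6 CPM over the ICZ libraries. Its slopes of -0.03 ± 0.02 with vehicle and -0.02 ± 0.02 with ICZ did not pass. In both groups the lowest mean was that of F5, at 144.8 ± 4.77 and 138.7 ± 11.9 CPM.

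Itga2, the collagen-binding partner of the Itgb1 product, ran the other way from Itgb4 and was lowest in F1. With vehicle it stood at 25.0, 17.9 and 15.8 CPM in F1, at 22.8, 17.2 and 21.6 CPM in F2, at 24.1, 27.5 and 30.8 CPM in F3, at 26.6, 29.3 and 28.2 CPM in F4 and at 26.6, 24.9 and 27.6 CPM in F5. With ICZ it stood at 16.2 and 17.3 CPM in F1, at 24.0, 22.6 and 31.3 CPM in F2, at 25.1, 27.8 and 24.9 CPM in F3, at 33.3, 28.4 and 27.7 CPM in F4 and at 24.8, 30.1 and 34.4 CPM in F5. The ICZ values of F1 were below those of every later fraction, while with vehicle the F1 range overlapped those of F2, F3 and F5.

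Itga2 rose by 0.13 ± 0.04 per fraction in vehicle mice (adjusted p = 0.0177) and by 0.15 ± 0.04 in ICZ mice (adjusted p = 0.0124), and all 6 mice had a positive slope. The vehicle call was lost without vehicle replicate 2 (adjusted p = 0.113) or 3 (0.158), and the ICZ call without ICZ replicate 2 (0.181). F5 against F1 in vehicle mice gave 0.44 ± 0.17 (adjusted p = 0.0639; 0.0170 without vehicle replicate 1). Along the vehicle fractions 7 of 7 crypt markers rose too and 4 of 6 villus markers fell, where 18.3% of all genes rose and 16.7% fell. The part of these markers in the slopes of Itga2, Lama3 and Itgb4 was not tested.

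**Figure D2:**
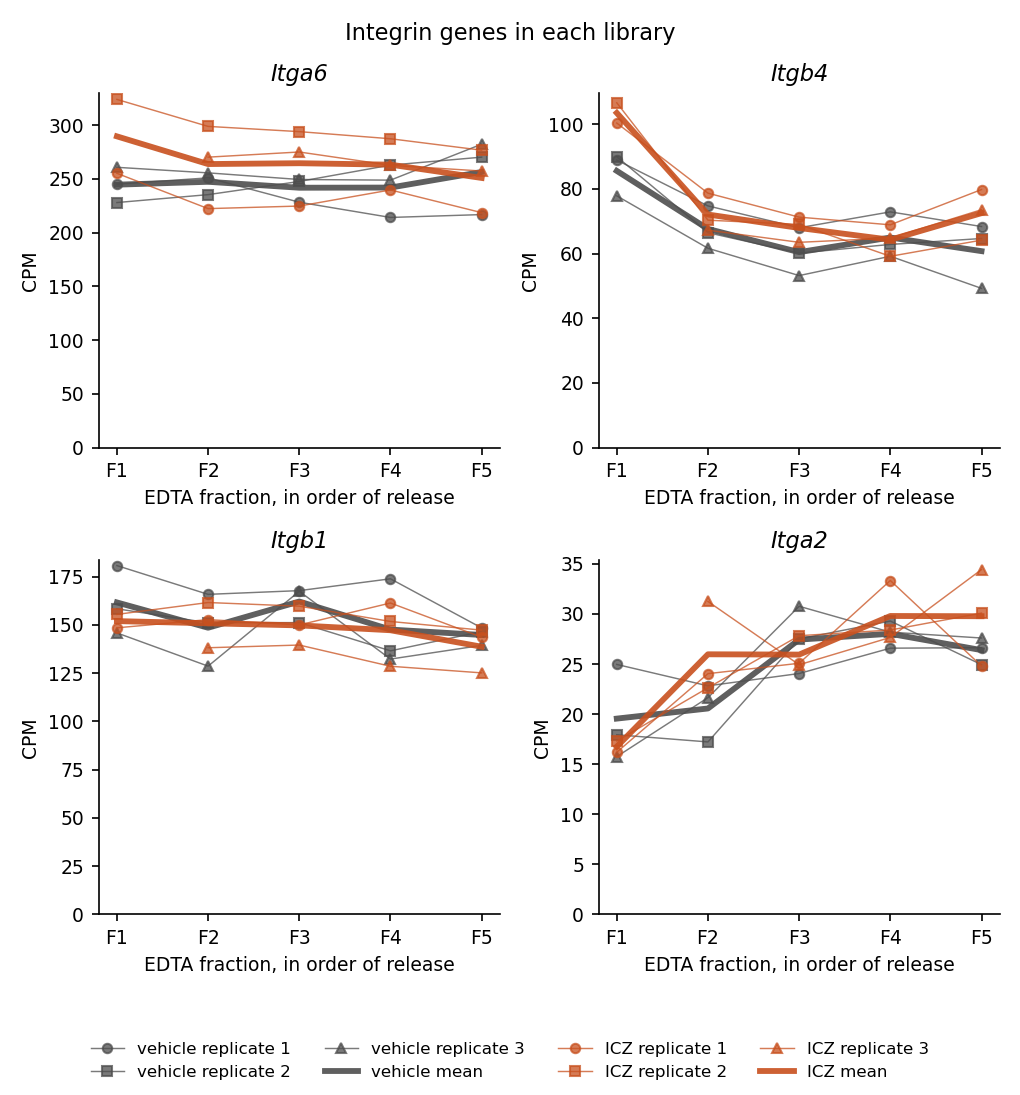
CPM of Itga6, Itgb4, Itgb1 and Itga2 against EDTA fraction, 1 point per library with thin lines joining the fractions of a mouse and thick lines for the group mean (vehicle grey, ICZ orange). Itgb4 is highest in F1 in both groups and Itga2 lowest there by the group mean, while Itga6 and Itgb1 have no F1 mean apart from the rest.

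Of the 5 members that were tested with ICZ, 0 passed over F2 to F5 added per mouse and 0 in any single fraction by edgeR. In the sums 0% of all genes passed, with 886 of 15497 at an unadjusted p under 0.05 and 13 passing by DESeq2, so 0 of 5 is what the background gives. Mice with the same replicate number deviated together between the groups in the sums and in F2. The sample titles name no such pairs, and for replicate 1 the animal numbers in them differ between the groups. Calls with the replicate number as a block, here and below, therefore rest on a pairing taken from these same data. With the replicate number as a block 1.49% of all genes passed in the sums (0.749% higher and 0.742% lower with ICZ) and 1.82% in F2, again with 0 of the 5 members. Without the block the fitted changes in the sums were 0.32 ± 0.33 for Lama3, 0.13 ± 0.09 for Itga2, 0.12 ± 0.10 for Itgb4, 0.08 ± 0.11 for Itga6 and -0.03 ± 0.09 for Itgb1, beside a median of 0.006 over all genes. Itga2 alone of the 5 had no overlap between mice, at 25.5, 25.4 and 27.5 CPM with vehicle and 27.6, 27.9 and 30.4 CPM with ICZ, as had 5.65% of all genes in this direction. Among all genes 0.0324% passed in F1, 0.0165% in F2 and 0.00815% in F3. None passed in F4 or F5 by edgeR (0%), where 349 and 342 genes had an unadjusted p under 0.05 and DESeq2 called 4 and 5. A member that did not pass is not shown to be unchanged.

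**Figure D3:**
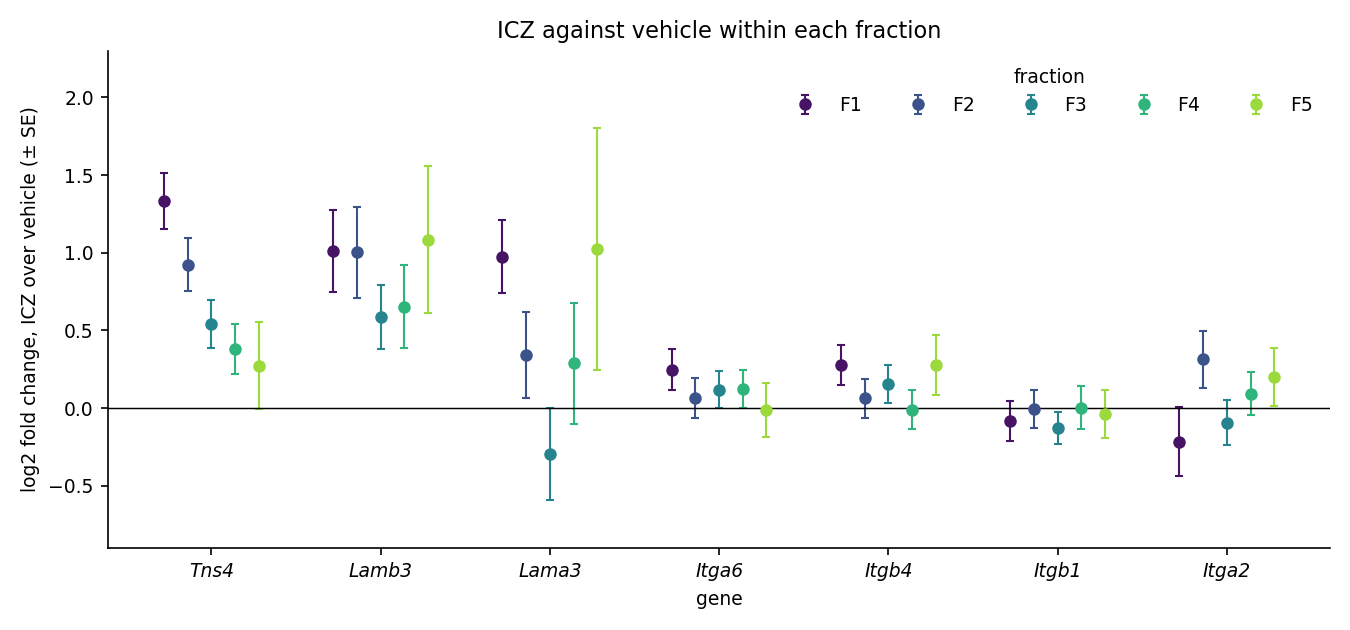
Log2 fold change of ICZ over vehicle within each fraction (vertical axis, edgeR estimate with bars of 1 SE) for the 7 members, with colours from F1 (dark) to F5 (light). The Tns4 points go down from 1.33 in F1 to 0.27 in F5, Lamb3 stays at or above 0.59, and the 4 integrin genes lie between -0.22 and 0.31.

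Over the 7 members the vehicle slopes thus fell into 3 kinds: down in Lama3 and Itgb4, up in Itga2 and Tns4, and not passing in Lamb3, Itga6 and Itgb1. With 4 of 7 past the threshold against 35% of all genes, and a median of all genes of 0.006, the count is given as a description. In ICZ mice 2 of 7 passed, Tns4 down and Itga2 up, against 30.2%. Both counts include Tns4, which was picked on the treatment contrast of these same libraries. Its slopes are therefore not independent of that choice, and the ICZ count too is a description. Of the 5 members that were not picked, 0 passed the edgeR test of a slope difference between the groups, which 2 of 14067 genes passed (0.0142%). The test of an ICZ effect that differs between fractions in any pattern was passed by 1 gene (0.00711%) and by 0 of these 5.

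**Figure D4:**
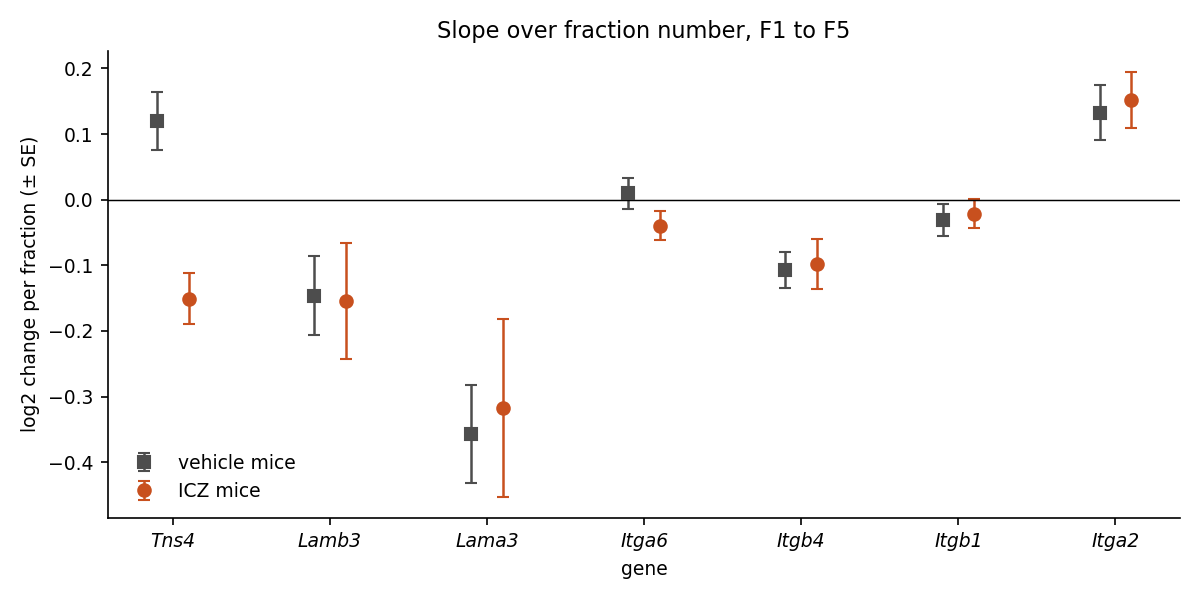
Log2 change per fraction from F1 to F5 (vertical axis, edgeR slope with bars of 1 SE) for the 7 members in vehicle mice (grey squares) and ICZ mice (orange circles). The pair for Tns4 lies on either side of 0, at 0.12 and -0.15, while those of the other 6 genes lie within 0.05 of each other. Without the F5 library of ICZ replicate 1 (not drawn) the ICZ slopes of Lamb3 and Lama3 were further below those of vehicle mice.

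The other genes of these structures come from lists chosen for this tissue. Of 7 further hemidesmosome and laminin receptor genes 6 were tested along the vehicle fractions, and 3 fell while 0 rose (median -0.08). Of all genes 16.7% fell and 18.3% rose in this test. Plec, which encodes plectin, the link from Itgb4 to keratin, fell by 0.21 ± 0.03 per fraction (adjusted p = 0.000149), from 319.8 ± 29.6 CPM in F1 to 182.2 ± 46.5 CPM in F5. The tetraspanin gene Cd151 fell by 0.07 ± 0.02 and the laminin receptor subunit gene Itga3 by 0.09 ± 0.03. All 3 also fell in ICZ mice (Plec -0.20 ± 0.07, Cd151 -0.10 ± 0.03, Itga3 -0.12 ± 0.03). With ICZ none of the 6 passed in the sums, where their median was -0.02; Dag1, the matrix receptor dystroglycan, had 256.4 ± 16.1 CPM with vehicle and 298.3 ± 15.6 CPM with ICZ. Dag1 passed in F2 with the replicate block alone (0.40 ± 0.09, adjusted p = 0.0372; 1.82% of genes passed there).

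Of 18 basement membrane genes 8 were tested along the vehicle fractions, of which 3 rose and 1 fell (median 0.17). For this and the next list the shares over all genes were 18.3% rising and 16.7% falling. Agrn, which encodes the heparan sulfate proteoglycan agrin, fell by 0.16 ± 0.03 per fraction (88.2 ± 3.57 CPM in F1, 57.4 ± 3.89 CPM in F5). Hspg2, the perlecan gene (0.39 ± 0.12), and the laminin chain genes Lamb1 (0.25 ± 0.09) and Lamc1 (0.26 ± 0.10) rose, the last named outside the rule with its value known. Of 9 other integrin genes 5 were tested and 1, Itgb5, fell (-0.23 ± 0.07). With ICZ 0 of 9 basement membrane and 0 of 6 other integrin genes passed in the sums.

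Of 21 tensin and focal adhesion genes 18 were tested along the vehicle fractions, with 4 rising and 4 falling and a median of 0.01. These counts are near the shares over all genes, of which 18.3% rose and 16.7% fell. The talin gene Tln2 rose by 0.38 ± 0.06 and the actin cross-linker gene Actn1 by 0.22 ± 0.04, and the kinase gene Src fell by 0.21 ± 0.04. The tensin gene Tns3, named with its value known, had 20.4 ± 3.39 CPM in F1 and 20.0 ± 4.87 CPM in F5 with vehicle, and 21.9 ± 2.19 and 24.6 ± 3.57 CPM over F2 to F5 with vehicle and ICZ (log2 fold change 0.17 ± 0.13, adjusted p = 0.894 by edgeR). Actn1 alone of the 19 genes tested with ICZ passed in the sums, with the replicate block and not without it (0.33 ± 0.06, adjusted p = 0.0206 and 0.846). With the block 0.749% of all genes passed as higher with ICZ.

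Ligands and receptors for epidermal and hepatocyte growth factor, which act upstream of Tns4 in other epithelia, were counted along the vehicle fractions too: 4 of 9 rose and 1 fell (median -0.02), where 18.3% of all genes rose and 16.7% fell. The ligand genes Areg (0.46 ± 0.09) and Ereg (0.55 ± 0.10) and the receptor gene Egfr (0.16 ± 0.03) rose. With ICZ 0 of 9 passed in the sums without the block. With the block Areg fell, from 46.9 ± 4.70 to 32.1 ± 4.87 CPM (-0.55 ± 0.09, adjusted p = 0.0133), and so did Hbegf, from 231.8 ± 97.9 to 133.3 ± 51.5 CPM (-0.79 ± 0.07, adjusted p = 2.98e-05). For this and the next list, 0.742% of all genes passed as lower with ICZ in the sums with the block. Among 9 tested genes of YAP signalling and repair, Cyr61 fell with the block (-0.69 ± 0.13, adjusted p = 0.0169) and the median without it was -0.38. Along the vehicle fractions 4 of 8 of these rose, led by Cyr61 (0.83 ± 0.10), and 2 fell, among them Anxa3 (-0.31 ± 0.07).

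AP-1 and heat shock genes, which respond quickly to stress such as the dissociation of a tissue, were listed because the fractions were released one after another. All 10 rose along the vehicle fractions (median 0.85, with 18.3% of all genes rising), among them Fosl1 (2.22 ± 0.21), Hspa1a (1.32 ± 0.12) and Hspa1b (1.11 ± 0.10). With ICZ 0 of 10 passed in the sums without the block and 7 fell with it, where 0.742% of all genes fell. The median was -0.64 without the block, beside 0.006 over all genes. Fos and Junb were among the 7, at -0.48 ± 0.06 and -0.37 ± 0.06 with the block. Hspa1a and Hspa1b are near-identical copies, whose reads cannot be assigned with certainty. Their part in the values of the members was not tested.

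Between libraries the members formed 1 cluster and several loose genes. Over the 29 libraries, which share 6 mice, the log2 CPM of Lama3 and Itgb4 correlated at r = 0.87 (Spearman's rho 0.877), Lamb3 and Lama3 at 0.814 (0.733) and Lamb3 and Itgb4 at 0.781 (0.762). As deviations from the group means, which take out treatment and fraction, the same pairs had 0.811, 0.875 and 0.762. Without the F5 library of ICZ replicate 1 they had 0.878, 0.79 and 0.79 over all other libraries. Tns4 was nearest to Itga6, at 0.531 (0.536). Tns4 and Lamb3, both picked for the same direction with ICZ, had 0.316 (0.334) over the libraries and -0.512 as deviations. With the F5 library of ICZ replicate 1 left out these were 0.42 and -0.352. These values are descriptions over libraries of shared mice and carry no p.

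**Figure D5:**
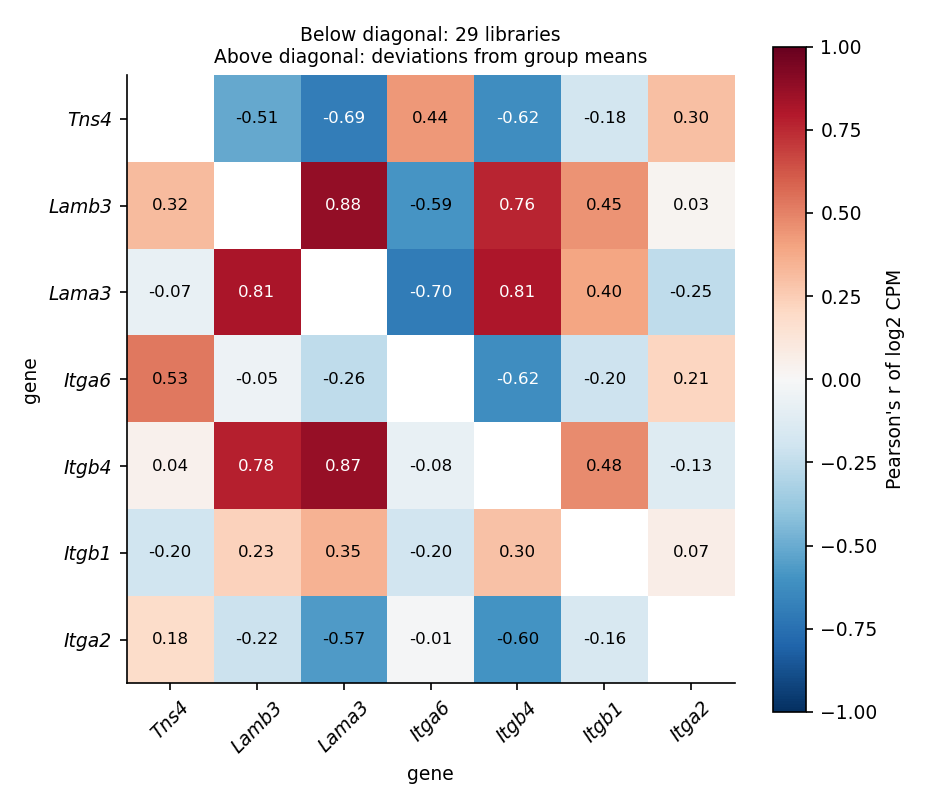
Pearson's r of log2 CPM between each pair of the 7 members, over the 29 libraries below the diagonal and as deviations from the mean of each treatment and fraction group above it (colour from -1, blue, to 1, red). Lamb3, Lama3 and Itgb4 have r of 0.78 to 0.87 with each other below the diagonal, and Tns4 has negative values with all 3 above it.

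The genes whose log2 CPM followed each of the 2 picked members most closely over the 29 libraries, among 9232 genes with a mean of at least 5 CPM, differed between them. For Tns4 they were Acta1 (r = 0.742), Fbxl19 (0.723), Plek2 (0.718), the AHR target Cyp1a1 (0.702) and Ptov1 (0.686). As deviations from the group means Acta1 had -0.035 and Cyp1a1 -0.542 with Tns4, while Fbxl19 had 0.573, Plek2 0.776 and Ptov1 0.714. For Lamb3 they were Asap1 (0.87), Pmp22 (0.868), the carotenoid-cleaving enzyme gene Bco1 (0.866), RP23-230O9.4 (0.864) and the enterocyte gene Clca4a (0.862), and their deviations gave 0.769 to 0.881. For Lama3, added after the values were seen, the nearest was Ido1, which encodes a tryptophan-degrading enzyme (0.929), followed by the transporter gene Abcc2 (0.917). For Itgb4, added likewise, it was Ugcg (0.897), and for Itga2 the ribonucleoprotein gene Nhp2 (0.894).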

How the data were processed

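The 29 libraries were 3' end RNA libraries of 5 fractions from 3 vehicle and 3 ICZ mice, grouped by their labels. A sample titled Undetermined, with its treatment given as Unknown, entered no comparison. The deposited values are raw counts of reads per gene, and per the submitters' processing notes FastQC 0.11.2, BWA 0.7.17-r1188, SAMtools 1.10, HTSeq 0.11.2 and the build GRCm38.p6 (mm10) were used. For the annotation release, the strand setting and molecular identifiers, nothing is stated by the labels or notes. Genes took 51.6% to 61.6% of counted reads, and the 5 summary lines (no feature 9.15% to 14.7%, low quality 18% to 26.5%) were left out. Replicates differed by more than sampling noise in all 28 pairs.

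Counts were tested with edgeR 4.0.16 in R 4.3.3 (TMM, filterByExpr, robust quasi-likelihood, Benjamini-Hochberg adjusted p under 0.05 over all genes tested). SE is the fold change over the root of F. ICZ was compared within each fraction and in counts added per mouse over F2 to F5, which all 6 mice have. Slopes over fraction number had the mouse as a block. Vehicle and ICZ mice of the same replicate number were checked for pairing, which the sample titles do not state. Their deviations correlated at 0.381, 0.247 and 0.472 in the sums and at 0.155, 0.103 and 0.142 in F2. They were not above the limit for every pair in the other fractions. Log2 CPM had a prior count of 2. Scripts were tested on simulated data.

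Alternatives were DESeq2 1.42.0, its size factors, no filter, the block, and leaving out each mouse. Genes of a list were named by the 3 smallest unadjusted p per comparison, and the 5 most alike by r for Tns4 and Lamb3; other names were added with their values known. Members and lists were chosen with earlier results of these data known.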

Additional observations from a re-analysis of the deposited data

Results flagged for a closer look

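The slope of Tns4 over the fractions had opposite signs in the 2 groups: every vehicle mouse had a positive slope (0.03, 0.05 and 0.28 on the log2 scale per fraction) and every ICZ mouse a negative one (-0.29, -0.09 and -0.03). That of ICZ replicate 3, the last, is over F2 to F5 alone. The difference was -0.27 ± 0.06, ICZ minus vehicle. It is a description with no test, since Tns4 was picked on the treatment contrast of these libraries.

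One sample is titled Undetermined, and its treatment is given as Unknown. In it Itgb1 had 176.8 CPM by plain library size. That is above the range of the vehicle libraries (131.8 to 172 CPM) and the highest ICZ library (171.5 CPM) on the same scale. The labels name no mouse or fraction for this sample, and 31.9% of its counted reads were not aligned. Its Itgb1 value can therefore not be read as that of a further mouse.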

How the results depend on the processing

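The replicate block changed no ICZ call of the 5 tested members. With no filter on low counts the genes past the threshold numbered 36 in the sums, 57 in F1, 351 in F2, 221 in F3, 26 in F4, 37 in F5, 4 for the slope difference and 331 for the ICZ effect between fractions. DESeq2 gave 13, 24, 124, 20, 4, 5, 1 and 4 in the same order. The replicate block gave 231 in the sums, 45 in F1, 221 in F2, 23 in F3, 5 in F4 and 8 in F5. Without the mouse block the slope difference and the effect between fractions each had 0. With F5 left out of the sums the block gave 165. Without the F5 library of ICZ replicate 1, F5 had 1 and the effect between fractions 2. The last 2 alternatives, also where used for correlations, were added after seeing the data. The causes were not tested.

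Leaving out each mouse in turn gave 0 to 3 genes in the sums, 1 to 22 in F1, 0 to 267 in F2, 0 to 498 in F3, 0 to 1 in F4 and F5, 886 to 4215 for F5 against F1, 1794 to 4407 for the vehicle slope, 1777 to 3463 for the ICZ slope, 0 to 4 for the slope difference and 0 to 5 for the effect between fractions.

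Small log2 values changed sign. With no filter Itgb1 was 0.0176 in F2 and -0.009 in F4. Without the F5 library of ICZ replicate 1, Itga6 was 0.0554 in F5 and the slope differences of Lama3 and Itgb4 were -0.148 and -0.0108. The Lamb3 slope difference was 0.0021 with DESeq2's size factors, 0.0046 with DESeq2 and 0.0087 without the mouse block. Leaving out a mouse gave sums of -0.0809 to 0.0307 for Itgb1, -0.0224 to 0.63 for Lama3 and -0.0072 to 0.166 for Itga6. In F2 it gave -0.0905 to 0.0761 for Itgb1 and -0.0317 to 0.18 for Itga6. In F4 it gave -0.067 to 0.0818 for Itgb4, -0.0709 to 0.14 for Itgb1 and -0.12 to 0.76 for Lama3, and in F5 -0.12 to 0.0734 for Itga6 and -0.0914 to 0.0434 for Itgb1. Itga6 had -0.0494 to 0.15 for F5 against F1 and -0.0268 to 0.0341 for the vehicle slope. Slope differences ran from -0.0251 to 0.0559 for Itga2, -0.0632 to 0.11 for Lamb3, -0.0712 to 0.21 for Lama3 and -0.0177 to 0.061 for Itgb4. As deviations from group means r changed sign for Tns4 with Lamb3 (-0.512) and Itgb4 (-0.62), and for Itga2 with Lamb3 (0.027), Itga6 (0.213) and Itgb1 (0.065). Without the F5 library of ICZ replicate 1 these were -0.352, -0.585, 0.234, 0.104 and 0.114, and plain r of Lamb3 with Itga6 was 0.062.

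Over all members and alternatives, 645 values counted as unchanged. For tested values this meant the same direction and side of the threshold, or the side alone for the ICZ effect between fractions. For the untested ICZ values and slope differences of Tns4 and Lamb3 it meant the same direction and a move of less than the error. Of the others, 13 lost and 12 gained a call, 37 changed sign and 11 values without a test moved by more than their error. Single libraries held as few as 9 reads of a member, which limits Lama3 and Lamb3 most.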

Other observations

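The sample titled Undetermined had 7484796 gene reads, and 31.9% of its counted reads were not aligned. By plain library size it had 27.0 CPM of Tns4, 14.2 CPM of Lamb3, 10.96 CPM of Lama3, 256.3 CPM of Itga6, 71.5 CPM of Itgb4 and 21.2 CPM of Itga2, all within the range of the vehicle libraries on that scale. No group was inferred for it.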
